A study of Mus musculus with 2 samples.

Results

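Definitive endoderm-like cells were studied in mouse somitic gastruloids, a stem-cell culture model in which an aggregate elongates and forms somites. A cell was counted among them when at least 2 of the transcripts Sox17, Trh and Spink1 each had 2 or more unique molecular identifiers (UMIs, counts of single captured RNA molecules), Krt18 had at least 1 and Zfp42 had 0. Of 13826 cells that passed the filters, 410 met this rule: 156 of 6646 in the untreated library and 254 of 7180 in the dTAG-13 library. Every gene used by the rule is therefore a description of how the cells were picked.

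Both libraries came from an E14 mouse embryonic stem cell line with a triple reporter, in which the endogenous Zeb2 protein carries an HA-FKBP12F36V degron tag, so the untreated cells carry the tag too. The small molecule dTAG-13 directs a protein with this tag to degradation. Each aggregate was seeded with 300 cells, received 3 µM CHIR99021, an activator of WNT signalling, at 48 h, and was moved to 10% Matrigel at 96 h. The treated aggregates received 100 nM dTAG-13 at 72 h and again at 96 h. The control is called untreated, as in its sample label, while the series text speaks of DMSO. About 32 gastruloids were pooled for each library, live cells were sorted, and 10000 were loaded per library. The labels used here do not state the age at harvest. With 1 library in each group, no difference below has a replicate check, and intervals (95%, exact) cover counting error only.

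Definitive endoderm arises from cells that leave the primitive streak under Nodal signalling and replaces most of the visceral endoderm of the early embryo. It forms the lining of the gut and organs such as liver, pancreas and thyroid, with Sox17, Foxa2 and Gata6 among its regulators. Its earliest anterior cells express Otx2, Hhex and Cer1, while Cdx and Hox genes mark the later midgut and hindgut. Zeb2 is a zinc-finger repressor known to act on epithelial genes such as Cdh1 through CACCTG-type E-boxes.

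The libraries held 7276 and 7873 barcodes with 158002807 and 176677276 UMIs. Definitive endoderm-like cells had a median of 19303.5 UMIs in the untreated and 21755.5 in the dTAG-13 library, against 20576.5 and 20695 in all other cells. Their median mitochondrial share was 4.82% and 4.75%. Of the cell barcodes, 14 occurred in both libraries, and 1 of the untreated and 0 of the dTAG-13 definitive endoderm-like cells had such a barcode.

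Some definitive endoderm-like cells were very large. At most 40000 UMIs were held by 6065 of all 6646 untreated and 6551 of all 7180 dTAG-13 cells that passed the filters. Among definitive endoderm-like cells the counts were 144 of 156 and 210 of 254. Those with over 40000 UMIs made up 12 of 156 in the untreated library (7.69%) and 44 of 254 in the dTAG-13 library (17.3%). Because levels were taken from summed UMIs, these cells supplied 18.7% of the summed UMIs in the untreated and 41.2% in the dTAG-13 library. The largest held 74382 and 178953 UMIs. Of the large cells, 6 of 12 and 23 of 44 were also among the barcodes ranked highest by the doublet caller Scrublet. Of the smaller cells, 5 of 144 and 9 of 210 were. Over all sizes, 7.05% of untreated and 12.6% of dTAG-13 definitive endoderm-like cells were ranked so. In all other cells the shares were 6.22% and 6.64%. Posterior genes were higher in the large cells as a group. The summed level of a list of 18 midgut and hindgut genes (Cdx and Hox genes, Evx1, Hnf4a and Pdx1) was 645 CPM (UMIs of a gene in every 1000000) in the 12 large untreated cells and 151 CPM in the smaller ones. In the dTAG-13 library it was 866 CPM in the 44 large cells and 79.0 CPM in the 210 smaller ones. Single cells varied: the median was 2.51 UMIs per 10000 in the large untreated cells, where 5 of 12 held 11.1 to 16.5 and the others at most 2.69, and the highest value of that library, 26.6, was in a smaller cell. Presomitic and somite genes summed to 341 and 150 CPM in the large cells of the 2 libraries and to 50.6 and 11.2 CPM in the smaller ones. Pluripotency genes summed to 46.5 and 172 CPM in the large and to 86.9 and 67.1 CPM in the smaller cells. Several results below are given with and without them. The size limit was chosen after the data were seen, and whether the large barcodes hold more than 1 cell was not tested.

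**Figure D1:**
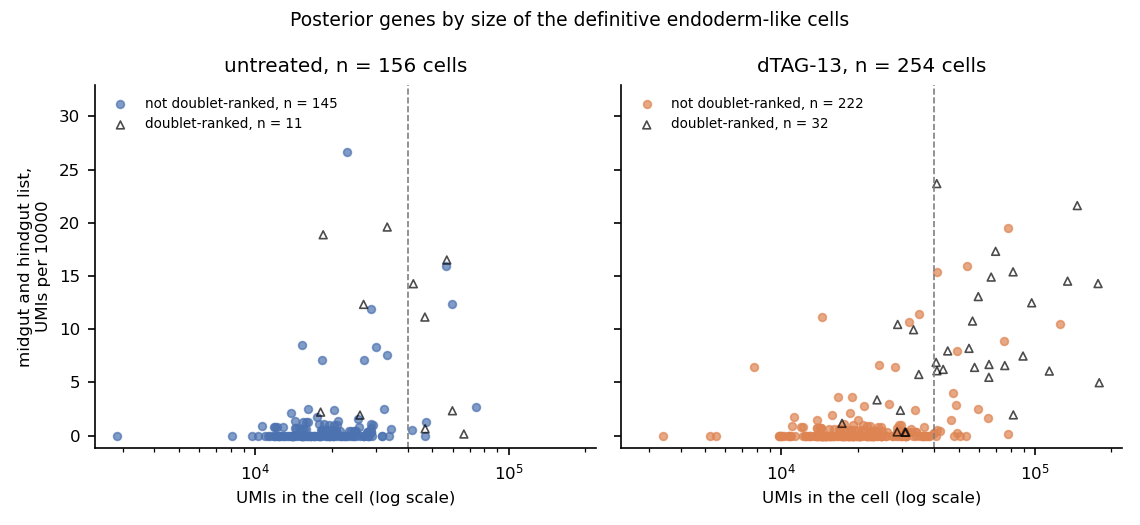
Each point is 1 definitive endoderm-like cell, placed by its UMIs (log axis) and by the UMIs per 10000 of the midgut and hindgut genes, with 156 untreated cells on the left and 254 dTAG-13 cells on the right. Triangles are barcodes ranked as doublets, the dashed line is at 40000 UMIs, and the median is 6.498 per 10000 for the 44 large dTAG-13 cells and 0 for the 210 smaller ones.

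Definitive endoderm-like cells formed 2.35% of the untreated library (Clopper-Pearson interval 1.997 to 2.74) and 3.54% of the dTAG-13 library (3.12 to 3.99). The dTAG-13 share was higher by 1.19 percentage points (Newcombe interval 0.618 to 1.76). After every cell was thinned to 5000 UMIs before the rule was applied, 92 of 6558 untreated cells (1.40%, 1.13 to 1.72) and 166 of 7098 dTAG-13 cells (2.34%, 1.9997 to 2.72) remained. The difference was 0.798 points without the large and the doublet-ranked cells. It was 0.390 points, with shares of 0.933% and 1.32%, when all 3 markers were asked for. The spread between pools of gastruloids was not measured, with 1 pool in each group.

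The rule has a sharp edge, and some cells lie close to it. For 18 untreated and 22 dTAG-13 cells the second of the markers stood at exactly 2 UMIs, just inside. A further 16 untreated and 36 dTAG-13 cells had it at 1 UMI and were just outside. The Zfp42 limit alone removed 13 untreated and 50 dTAG-13 cells, of which 6 and 28 held only 1 UMI of Zfp42, a gene of naive pluripotency. The Krt18 limit alone removed 1 and 4 cells. In addition, 163 untreated and 269 dTAG-13 cells had Trh as their only marker at 2 or more UMIs.

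The rule genes themselves had the following levels. Sox17, an endoderm transcription factor (chr1:4490931-4497354, minus strand, GRCm38), stood at 131 CPM in untreated and 88.5 CPM in dTAG-13 definitive endoderm-like cells. Trh, the precursor of thyrotropin-releasing hormone (chr6:92242061-92244650, minus strand), stood at 2882 and 1948 CPM. Spink1, a secreted trypsin inhibitor, stood at 782 and 869 CPM, and Krt18, a simple-epithelium keratin, at 593 and 699 CPM. Per cell, Trh ranged from 0.643 to 115 UMIs per 10000 in untreated cells with a median of 23.8, and from 0 to 126 with a median of 17.3 in dTAG-13 cells. Sox17 had medians of 1.13 and 0.685 per 10000, and 28 untreated and 64 dTAG-13 cells held none of it. These values chose the cells and are given as a description.

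The cells can be grouped by which markers reached 2 UMIs, the limit of the rule, so a marker below it may still be present at 1 UMI. All 3 markers reached it in 62 untreated (39.7%) and 95 dTAG-13 cells (37.4%). Sox17 and Trh reached it and Spink1 did not in 43 (27.6%, 20.7 to 35.3) and 47 cells (18.5%, 13.9 to 23.8). Trh and Spink1 reached it and Sox17 did not in 50 (32.1%, 24.8 to 40.0) and 111 cells (43.7%, 37.5 to 50.04). Sox17 and Spink1 reached it and Trh did not in 1 cell of each library. With dTAG-13 the share of Trh and Spink1 cells was thus higher and that of Sox17 and Trh cells lower. Each interval is for 1 library alone, so their overlap does not measure the difference, which was not tested. Several genes differ in level between these combinations, as given below. The part of the changed mix in the dTAG-13 ratios was not tested.

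Foxa2 and Car4, the markers of the group that the rule did not use, were both high in the definitive endoderm-like cells. Foxa2, a pioneer factor of endoderm and notochord (chr2:148042877-148046969, minus strand), stood at 116 CPM (105 to 128) untreated and 103 CPM (95.6 to 110) with dTAG-13. All other cells held 5.89 and 15.4 CPM. Car4, a membrane-bound carbonic anhydrase (chr11:84957786-84966044, plus strand), stood at 314 CPM (295 to 333) and 287 CPM (274 to 299), against 3.35 and 7.80 CPM. At 5000 UMIs per cell, Foxa2 was detected in 51.0% of untreated and 37.9% of dTAG-13 definitive endoderm-like cells. In somite-like cells (2 or more UMIs of both Meox1 and Tcf15), which should lack it, the shares were 0.771% and 1.47%, with median depths of 23798 and 24678 UMIs before thinning. Without thinning, Foxa2 was found in 80.1% and 80.3% of the definitive endoderm-like cells. In 8 untreated and 9 dTAG-13 cells neither Foxa2 nor Car4 had a UMI.

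The label was also checked against cell types that share these markers. Of visceral endoderm genes, 8 of 16 were measured, 4 were at least 2-fold higher than in other cells in the untreated and 6 in the dTAG-13 library, and 0 were lower. The list summed to 970.1 and 1065 CPM, against 68.6 and 89.9 CPM in other cells, and 782 and 869 CPM of this came from the rule gene Spink1. Cer1, Slc39a8 and Rbp4 were the others that were higher in both libraries. The genes that define visceral endoderm most closely were at or near 0: Afp had 0 UMIs in both libraries, which allows up to 1.07 and 0.497 CPM, Apob stood at 0 and 0.135 CPM, Apoa1 at 0.869 and 1.62 CPM, and the transthyretin gene Ttr at 0.869 and 3.77 CPM. Of 9 measured notochord and node genes, 6 and 4 were at least 2-fold higher, Foxa2, Shh, Chrd and Pkd1l1 in both libraries, and the list summed to 209 and 190.1 CPM against 91.0 and 83.5 CPM. Noto, a defining gene of the node and notochord, stood at 0.290 and 0.269 CPM, and T at 23.5 and 26.4 CPM. In notochord-like cells (2 of T, Noto and Shh at 2 or more UMIs, with Foxa2) T stood at 541 and 425 CPM and Noto at 118 and 46.0 CPM, over 32 and 37 cells. Of the definitive endoderm-like cells, 1 untreated and 3 dTAG-13 cells carried 2 of T, Noto and Shh at 2 or more UMIs. Of 8 measured parietal endoderm genes, 5 were at least 2-fold higher in both libraries, the collagen genes Col4a1 and Col4a2, Sparc, Pth1r and Plat. That list summed to 698 and 625 CPM, against 212 and 206 CPM. Its members Thbd and Sox7 stood at 0 UMIs in both libraries and at 0.290 and 0.135 CPM. Summed over all members, these 3 lists were higher than in other cells.

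Over the whole transcriptome, 730 of 14756 genes were at least 2-fold higher in definitive endoderm-like than in all other untreated cells (4.95%) and 693 were at least 2-fold lower (4.7%). In the dTAG-13 library 450 of 15232 genes were higher (2.95%) and 489 lower (3.21%). The higher genes numbered 833 and 647 when the large and the doublet-ranked cells were left out. Of the higher genes 367 were shared, 50.3% of the untreated and 81.6% of the dTAG-13 set, and the 30 leading genes of each library had 22 in common. These genes describe cells that were chosen on their transcripts, and no test was made. The gene lists used another limit, at least 10 UMIs in the definitive endoderm-like cells of both libraries together. Of the 12906 genes at that limit, 825 were at least 2-fold higher and 487 lower in the untreated library. In the dTAG-13 library 496 were higher and 309 lower. The genes named next are the 30 with the largest ratio in the library where it was smaller, among genes at 20 CPM or more in the definitive endoderm-like cells of both.

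Transcription factors of anterior endoderm and of the organizer region stood out among them. Otx2, a head and anterior endoderm homeobox gene, stood at 204 CPM (189 to 219) in untreated and 244 CPM (233 to 255) in dTAG-13 definitive endoderm-like cells, against 9.99 and 21.2 CPM in all other cells. Hhex, an early homeobox gene of liver and thyroid precursors, stood at 50.7 CPM (43.4 to 58.8) and 54.3 CPM (49.1 to 59.8), against 4.41 and 5.46 CPM. Gsc, a homeobox gene of the organizer, stood at 117 and 113 CPM, and the LIM homeobox gene Lhx1 at 404 and 349 CPM. Eomes, a T-box factor required for definitive endoderm, stood at 81.7 and 66.0 CPM, against 6.37 and 5.93 CPM. Foxa1, Foxq1 and Gata6 completed the factors, with log2 ratios over the other cells of 3.79, 4.53 and 3.62 in the untreated and 3.60, 3.72 and 2.85 in the dTAG-13 library. Of 17 measured endoderm transcription factors, Sox17 included, 16 were at least 2-fold higher in the definitive endoderm-like cells of the untreated library and 14 in those of the dTAG-13 library, and 0 were lower.

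Secreted antagonists formed a further part of the profile. Cer1, an antagonist of Nodal, BMP and WNT ligands, stood at 91.8 CPM (82.0 to 102) in untreated and 101 CPM (93.5 to 108) in dTAG-13 definitive endoderm-like cells. In all other cells it was 5.64 and 8.23 CPM. Dkk1, a WNT antagonist, stood at 379 CPM (359 to 400) and 314 CPM (301 to 327), against 8.85 and 10.0 CPM. Sfrp5, another WNT antagonist of the foregut, was lower in level, at 15.9 and 24.2 CPM, and was almost absent from the other cells at 0.589 and 0.965 CPM. Of 15 measured anterior and foregut genes, 13 were at least 2-fold higher in the definitive endoderm-like cells of the untreated and 12 in those of the dTAG-13 library. Sox2 was the 1 member of that list that was lower in both libraries. The later foregut genes Nkx2-1, Nkx2-3 and Nkx2-5 stood between 0 and 0.579 CPM.

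Posterior genes went the other way. Of 15 measured midgut and hindgut genes, 14 were at least 2-fold lower in definitive endoderm-like than in other untreated cells and 13 in the dTAG-13 library, with 0 higher. Cdx2, the caudal gene of the hindgut, stood at 34.5 and 37.8 CPM in the definitive endoderm-like cells and at 147 and 96.2 CPM in all others. Hoxb9 stood at 50.7 and 107 CPM, against 380 and 248 CPM. How often Otx2 and Cdx2 were found in the same cell depended on depth. At 5000 UMIs per cell, 63 of 155 untreated cells held Otx2 without Cdx2, 15 held Cdx2 without Otx2, and 3 held both. In the dTAG-13 library 120 of 253 cells held Otx2 alone of this pair, 18 held Cdx2 alone, and 5 held both. Cdx2 was thus found in few cells at this depth, which limits how many could hold both. At full depth 14 untreated and 38 dTAG-13 cells held both, and 18 and 22 held Cdx2 without Otx2. Whether the 2 genes mark separate cells was not tested. At least 1 UMI of Otx2, Cer1 or Hhex was present in 64.1% (56.0 to 71.6) of untreated and 78.0% (72.3 to 82.9) of dTAG-13 definitive endoderm-like cells at full depth. At 5000 UMIs per cell Otx2 was found in 42.6% and 49.4%.

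Several receptors, enzymes and surface proteins were as closely tied to the group. Flt1, a VEGF receptor best known from endothelium, stood at 223 CPM (208 to 239) and 177 CPM (167 to 186), against 3.49 and 6.24 CPM in all other cells. Of 4 measured endothelial genes, 1 was at least 2-fold higher than in other untreated cells (Cdh5) and 0 in the dTAG-13 library, and the list of 10 summed to 44.3 and 52.1 CPM, against 61.4 and 65.9 CPM. Cdh5 stood at 2.90 and 0.539 CPM, Kdr at 2.61 and 4.04 CPM, and Tie1 at 0 and 0.135 CPM. Pga5, which encodes a pepsinogen, stood at 92.7 CPM (82.8 to 103) and 143 CPM (135 to 152), against 0.747 and 3.64 CPM. Emb, the gene of the adhesion protein embigin, was detected in 100% of the definitive endoderm-like cells of both libraries and stood at 1588 and 1603 CPM. It was also detected in 72.0% and 85.2% of all other cells, at 85.3 and 167 CPM. The carboxypeptidase genes Cpn1 and Cpm, the sulfotransferase gene Chst15, the glutathione peroxidase gene Gpx2, the angiomotin gene Amot and the WNT receptor gene Fzd5 were 2.97 to 4.60 log2 units higher than in the other cells in both libraries. Dkk1, Fgf5, Nrp1, Cd55, Irs4, Arhgap6, Sema6d, Fhl2, Asb4, Ctsc and Gfpt2 made up the rest of the 30. Their ratios ran from 2.81 for Gfpt2 in the dTAG-13 library to 5.27 for Dkk1 in the untreated library.

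The 10 lowest genes were led by genes of pluripotent cells, and the Zfp42 limit of the rule bears on this class. Dppa5a stood at 30.4 and 19.1 CPM in definitive endoderm-like cells and at 433 and 527 CPM in all others. Pou5f1, the Oct4 gene, stood at 7.24 and 19.0 CPM, against 74.7 and 130 CPM. The others were Dppa3, Tdh, Morc1, Rbmxl2, Utf1, Klf2, Mylpf and Rasgrp2.

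**Figure D2:**
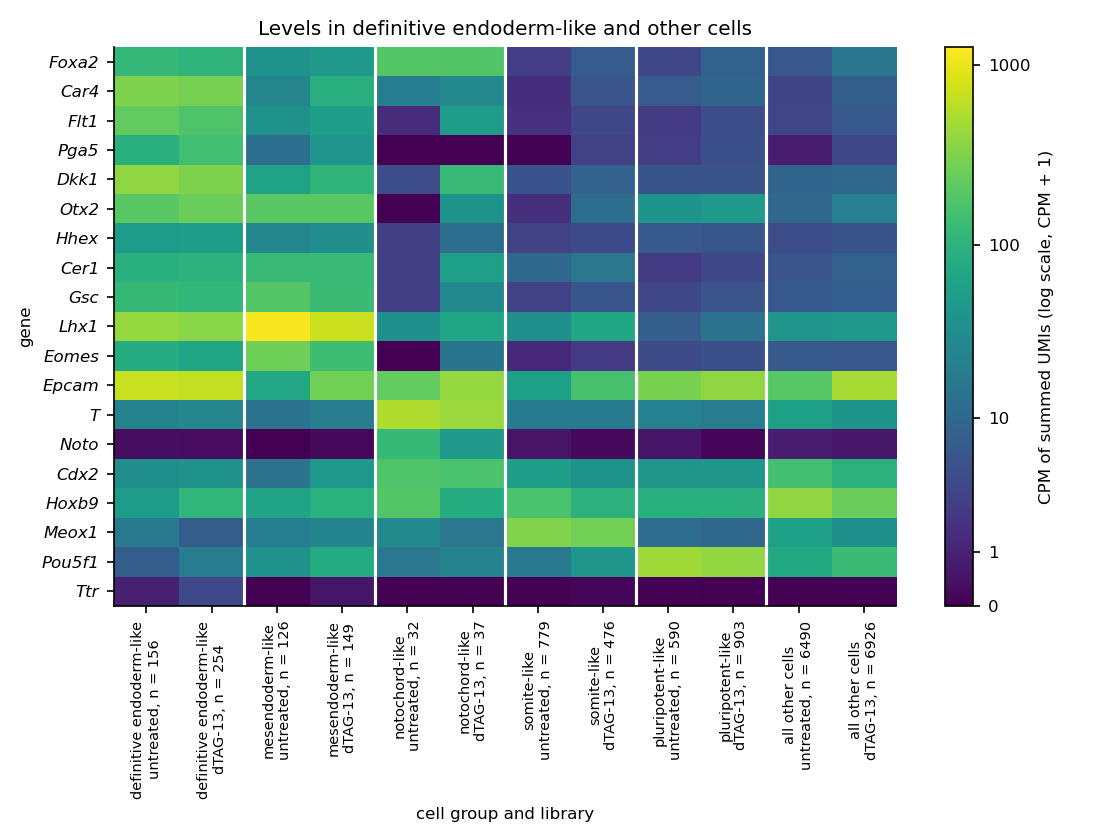
Colour gives the CPM of summed UMIs (log scale, CPM + 1) of 19 genes in 6 cell groups of the untreated and the dTAG-13 library. The definitive endoderm-like columns share Otx2, Cer1 and Gsc with the mesendoderm-like cells, while Car4, Flt1, Pga5, Dkk1, Hhex and Epcam are highest in the definitive endoderm-like columns. Foxa2, T and Noto were used to choose the notochord-like cells, and Eomes and Lhx1 the mesendoderm-like cells. Those genes are therefore high in those columns by definition.

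A group that shared several of these genes was that of mesendoderm-like cells, which had Eomes and Lhx1 but did not meet the rule (126 untreated and 149 dTAG-13 cells). Their median depths were 25192.5 and 28785 UMIs. They shared the anterior and organizer genes: Otx2 stood at 201 and 200.4 CPM, Cer1 at 123 CPM in both libraries and Gsc at 185 and 129 CPM, levels near or above those of the definitive endoderm-like cells. They differed in the epithelial and endoderm genes. Epcam, an epithelial adhesion protein, stood at 74.0 CPM in untreated mesendoderm-like and 699 CPM in untreated definitive endoderm-like cells, and at 276 and 646 CPM in the dTAG-13 library. Car4 stood at 24.5 and 86.2 CPM and Flt1 at 37.2 and 51.5 CPM in the mesendoderm-like cells. Of the definitive endoderm-like cells themselves, 63 untreated (40.4%) and 96 dTAG-13 cells (37.8%) held both Eomes and Lhx1. No test of these differences was possible within 1 library each.

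Definitive endoderm-like cells also varied among themselves. Cells in which Sox17 and Trh reached the limit and Spink1 did not had more Cer1, Lhx1 and Lefty1 than cells in which Trh and Spink1 reached it and Sox17 did not. Cpn1, Irx1 and Krt7 had the opposite order, in both libraries. The genes named here had the largest ratios between these combinations in both libraries, a ranking chosen after the data were seen. Cer1 stood at 216 CPM in untreated Sox17 and Trh cells, 58.7 CPM in cells with all 3 markers and 14.8 CPM in Trh and Spink1 cells. In the dTAG-13 library it was 224, 73.3 and 52.9 CPM. Lhx1 stood at 752, 319 and 181 CPM untreated and 750.2, 325 and 123 CPM with dTAG-13. Lefty1, a feedback inhibitor of Nodal, stood at 162, 48.8 and 24.7 CPM and at 248, 71.6 and 48.9 CPM. Tdgf1, the Nodal co-receptor also called Cripto, stood at 108, 41.0 and 24.7 CPM and at 127, 45.5 and 8.09 CPM. The growth factor genes Fgf5 and Fgf10 and the myosin light chain gene Myl7 were likewise highest with Sox17 and Trh in both libraries.

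Other genes went the opposite way. Cpn1 stood at 13.8, 60.1 and 77.1 CPM in the 3 combinations of the untreated and at 6.95, 38.7 and 54.8 CPM in those of the dTAG-13 library. The homeobox gene Irx1 stood at 8.88, 47.4 and 45.5 CPM and at 7.52, 32.9 and 40.8 CPM. Pax9, a pharyngeal endoderm factor, stood at 5.92, 13.4 and 20.8 CPM and at 0.579, 8.49 and 27.6 CPM. Tph1, an enzyme of serotonin synthesis, the small GTPase gene Rab25 and the keratin gene Krt7 were at least 1.59 log2 units higher with Trh and Spink1 than with Sox17 and Trh in both libraries. Vim, an intermediate filament gene of mesenchymal cells, stood at 341, 112 and 85.0 CPM in the untreated and at 192, 82.5 and 45.9 CPM in the dTAG-13 library, while Epcam stood at 329, 876 and 808 CPM and at 316, 677 and 824 CPM. Median depths were 21081, 19208.5 and 18335.5 UMIs untreated and 26513, 23068 and 18405 UMIs with dTAG-13, so depth moved with the combination, and its part was not tested. Without the large and the doublet-ranked cells, 29 of the 30 genes on these lists still differed at least 2-fold in both libraries.

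**Figure D3:**
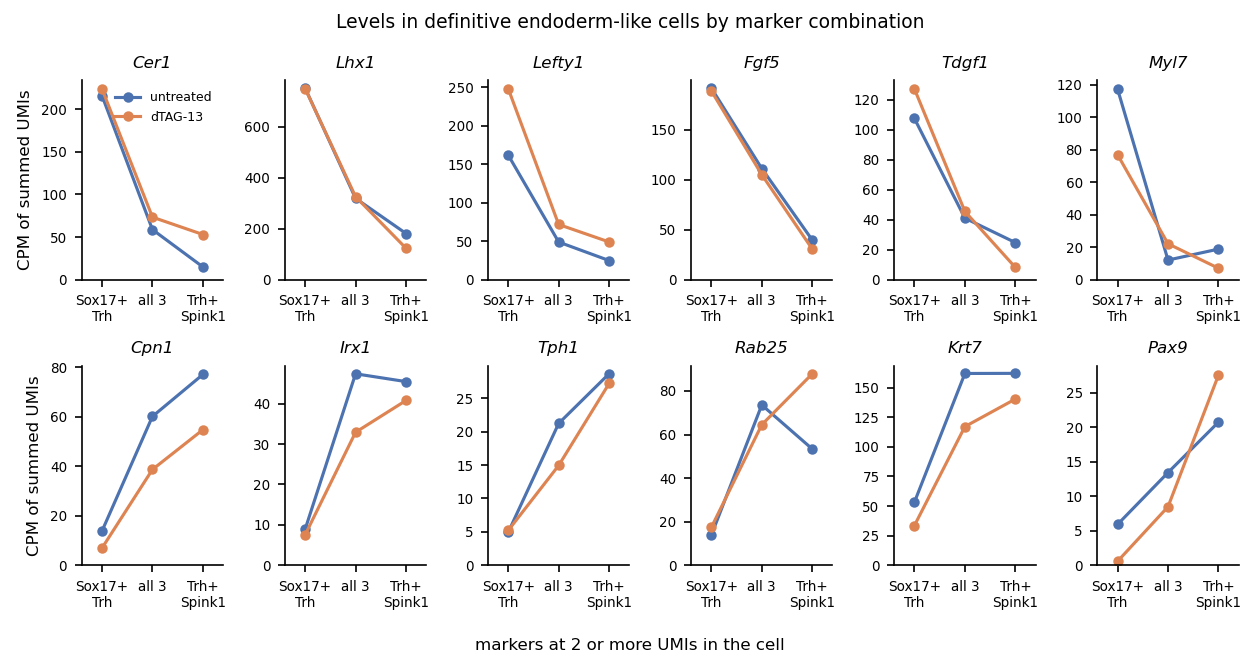
Lines join the CPM of 12 genes in definitive endoderm-like cells grouped by their markers, for the untreated (blue) and dTAG-13 (orange) library; each y axis starts at 0. The upper 6 genes are highest with Sox17 and Trh and the lower 6 are lowest there, in both libraries.

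The dTAG-13 comparison asks how expression within the definitive endoderm-like cells differs between the treated and the untreated library. Loss of the Zeb2 protein was not measured in these data. Most of their endoderm transcription factors stood within 1.5-fold between the libraries. Of the 17 measured (of 18 listed) endoderm transcription factors, 0 were at least 1.5-fold higher and 1 was lower in dTAG-13 cells. That gene was Mixl1, a homeobox gene of the primitive streak, at 6.95 and 2.42 CPM. The 17 include Sox17, which helped to choose the cells and had a log2 ratio of -0.57, just within the fold. The list's median log2 ratio was -0.18. Without the large and the doublet-ranked cells it was 0.06, with 1 of 17 higher and 1 lower. Foxa2 had a ratio of -0.18 and Car4 a ratio of -0.13 with all cells, and -0.0057 and 0.25 without the large and the doublet-ranked cells. All 12906 genes that reached 10 UMIs had a median of 0.01, and 681 of them lay 1.5-fold or more above (5.28%) and 493 below (3.82%). Among the 9817 genes with at least 50 UMIs, 234 were higher (2.38%) and 176 were lower (1.79%). Without the large and the doublet-ranked cells, 123 of the 234 and 119 of the 176 still had at least 50 UMIs, and 91 and 72 of these were past the fold in the same direction. In all, 204 and 194 of 8681 genes passed it then. At the limit of 10 UMIs used for the lists, 640 of 11972 genes were higher and 630 lower without those cells. In the other cells, 336 and 96 of these 11972 genes were.

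The Zeb2 transcript (chr2:44983632-45117395, minus strand, GRCm38) was low in definitive endoderm-like cells, at 17.95 CPM (13.8 to 23.0) untreated and 32.9 CPM (28.9 to 37.2) with dTAG-13, against 68.5 and 96.3 CPM in all other cells. The log2 ratio was 0.84, but without the large and the doublet-ranked cells the levels were 10.1 and 5.84 CPM and the ratio was -0.69 (-1.64 to 0.06). Because the degrader targets Zeb2 protein, RNA levels give no check of the labels. Zeb1, the related repressor, stood at 11.004 and 9.83 CPM.

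Taken as a sum, epithelial genes were higher in definitive endoderm-like than in other cells of both libraries. Within definitive endoderm-like cells the sum was nearly level between the libraries, whereas in the other cells it was higher with dTAG-13. The list of 28 epithelial junction and keratin genes summed to 3297 CPM in untreated and 3357 CPM in dTAG-13 definitive endoderm-like cells. In all other cells it summed to 704 and 1648 CPM. Gene by gene, 22 of the 28 were at least 2-fold higher than in other cells in the untreated library. In the dTAG-13 library 9 of the 28 were, and the median log2 ratios over the other cells were 1.73 and 0.58. Of all 12906 genes, 825 and 496 were at least 2-fold higher. The list's median log2 ratio of dTAG-13 over untreated was 0.05 within definitive endoderm-like cells, with 2 genes at least 1.5-fold higher and 1 lower. In the other cells the median was 1.34, with 24 of 28 higher and 0 lower. Over all 12906 genes, the other cells had a median of 0.03, with 410 genes higher and 143 lower. Leaving out the large and the doublet-ranked cells, the medians were 0.22 and 1.30, with 1 and 24 genes higher. Krt18, 1 of the 28, was part of the rule and gave 593 and 699 CPM of the sums in definitive endoderm-like cells. The difference between the cell groups was not tested.

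Single genes of this list show the same order of levels. Cldn7, a tight-junction claudin, stood at 147 CPM (134 to 160) in untreated and 177 CPM (168 to 187) in dTAG-13 definitive endoderm-like cells, while in the other cells it was 15.8 and 95.9 CPM. Cdh1, the E-cadherin gene, stood at 57.6 CPM (49.9 to 66.2) and 59.2 CPM (53.8 to 65.0), against 17.7 and 46.1 CPM. Epcam stood at 699 CPM (671 to 727) and 646 CPM (627 to 664), against 194 and 493 CPM. In each of these genes the untreated definitive endoderm-like cells were above the dTAG-13 level of the other cells. The genes past the fold within the group were Cldn3 (15.3 and 33.8 CPM, log2 ratio 1.09), the epithelial transcription factor gene Grhl2 (6.37 and 15.1 CPM, 1.13) and, in the other direction, Krt19 (121 and 73.2 CPM, -0.72). Without the large and the doublet-ranked cells Grhl2 kept a ratio of 1.16, while Cldn3 stood at 0.54 and Krt19 at -0.57, both within 1.5-fold.

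**Figure D4:**
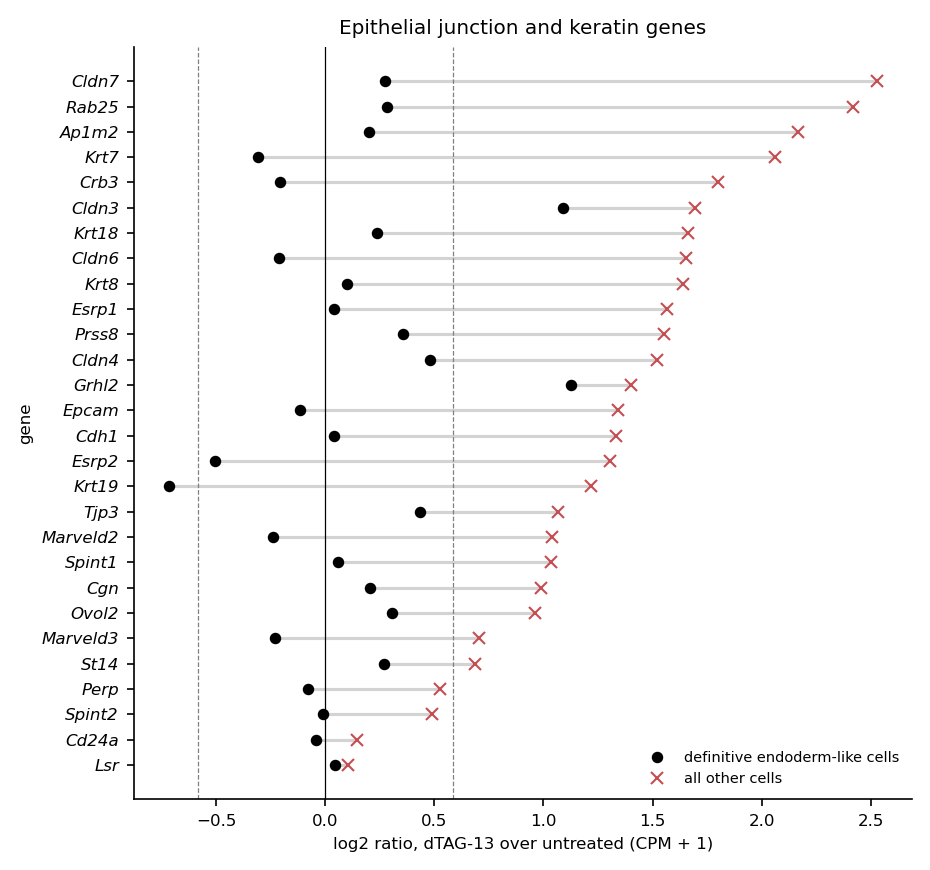
Log2 ratio of dTAG-13 over untreated for 28 epithelial genes, in definitive endoderm-like cells (dots) and all other cells (crosses), with dashed lines at 1.5-fold. The dots scatter around 0 with a median of 0.05, and 24 of the 28 crosses lie beyond the upper line.

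Promoters of these genes were searched for CACCTG and its reverse complement CAGGTG, the E-box letters bound by ZEB proteins, because Zeb2 carries the tag. RefSeq promoters on GRCm38.p6, from 250 bases before to 50 bases after the start, were found for 18 of the 28 genes, with 22 start sites. The motif was present in 18 of the 22 windows (81.8%), against 6640 of 32851 windows of all genes (20.2%). By gene, 15 of the 18 held it. The windows of Crb3 overlap, as do those of Marveld2, so the same matches are counted again. Cdh1 had no window among the 22. Among the 30 genes that were highest in definitive endoderm-like cells the motif was present in 7 of 36 windows (19.4%). Windows were found for 27 of these genes, and 7 genes held the motif. The motif and the list were chosen with earlier results of these data known, a match is not a binding site, and no binding was measured. Shown are the 3 genes of the list with the largest ratio in the other cells, Cldn7, Rab25 and Ap1m2, with the motif in capitals on either strand. Their windows are chr11:69965171-69965470 on the plus strand for Cldn7, chr3:88548230-88548529 on the minus strand for Rab25 and chr9:21312284-21312583 on the minus strand for Ap1m2. A second Cldn7 start holds no match. Each is written 5′ to 3′ along its gene.
Cldn7: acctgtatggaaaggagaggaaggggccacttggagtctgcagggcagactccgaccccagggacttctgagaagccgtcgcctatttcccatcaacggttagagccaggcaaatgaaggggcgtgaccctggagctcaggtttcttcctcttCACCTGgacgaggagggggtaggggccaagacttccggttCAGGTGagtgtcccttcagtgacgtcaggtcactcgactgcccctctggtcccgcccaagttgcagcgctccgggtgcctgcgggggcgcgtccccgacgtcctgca
Rab25: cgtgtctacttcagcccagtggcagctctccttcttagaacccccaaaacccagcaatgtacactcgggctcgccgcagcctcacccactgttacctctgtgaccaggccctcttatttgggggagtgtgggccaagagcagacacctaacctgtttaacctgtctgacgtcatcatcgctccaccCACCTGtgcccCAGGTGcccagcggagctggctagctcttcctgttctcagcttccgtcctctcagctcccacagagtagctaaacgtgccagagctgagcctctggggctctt
Ap1m2: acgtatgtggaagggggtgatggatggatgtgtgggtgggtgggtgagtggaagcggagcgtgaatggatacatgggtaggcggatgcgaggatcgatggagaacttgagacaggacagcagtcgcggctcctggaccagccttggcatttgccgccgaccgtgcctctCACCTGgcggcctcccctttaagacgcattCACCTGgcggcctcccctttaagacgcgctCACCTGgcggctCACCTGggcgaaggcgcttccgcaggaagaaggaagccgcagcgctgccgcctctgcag
Cldn7 and Rab25 hold 2 matches each and Ap1m2 holds 4. Within definitive endoderm-like cells the log2 ratios of the 3 genes were 0.27, 0.28 and 0.20, and in the other cells 2.53, 2.42 and 2.17.

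Some genes did differ within definitive endoderm-like cells, in the same direction and past 1.5-fold under all 12 settings tried. Sfn, an epithelial 14-3-3 protein, stood at 7.82 CPM (5.15 to 11.4) untreated and 31.1 CPM (27.2 to 35.4) with dTAG-13, a log2 ratio of 1.86 (1.41 to 2.62). In the other cells it was 18.3 and 65.9 CPM, a ratio of 1.79. Id1, an inhibitor of bHLH factors and a target of BMP signalling, stood at 101 CPM (91.0 to 113) and 190 CPM (180 to 200), a ratio of 0.90, against 91.2 and 121 CPM (0.41) in the other cells. H19, an imprinted non-coding RNA, stood at 140 CPM (128 to 153) and 256 CPM (245 to 268), a ratio of 0.87, against 68.8 and 71.8 CPM (0.06). These ratios were 1.25, 0.98 and 1.27 without the large and the doublet-ranked cells. Grhl2 also belonged here. Id1 was higher with dTAG-13 in each marker combination: 47.4 against 117 CPM in Sox17 and Trh cells, 116 against 180 CPM with all 3 markers, and 135 against 247 CPM in Trh and Spink1 cells. H19 was not, at 222 against 168 CPM in Sox17 and Trh cells, 111 against 280 CPM with all 3 and 101 against 290 CPM in the last group.

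On the lower side, 7 of the 12 lowest genes stayed past the fold under all 12 settings. Vtn, the gene of the matrix protein vitronectin, stood at 25.2 CPM (20.2 to 31.1) untreated and 11.8 CPM (9.50 to 14.6) with dTAG-13, a log2 ratio of -1.03 (-1.53 to -0.64). Tfpi, an inhibitor of coagulation, stood at 29.5 CPM (24.1 to 35.9) and 14.4 CPM (11.8 to 17.4), a ratio of -0.99. The histone genes Hist1h2ap and Hist1h2ae had ratios of -1.25 and -0.95, with -1.15 and -0.77 in the other cells, and near-identical histone copies make their counts uncertain. The sorting nexin gene Snx1 (-0.86), Ranbp9 (-0.84) and the nuclear membrane gene Nrm (-0.77) were the others. Vim stood at 171 CPM (157 to 185) and 95.6 CPM (88.7 to 103), a ratio of -0.83 (-0.99 to -0.68), and was past 1.5-fold under 11 of the 12. It was lower with dTAG-13 in each of the marker combinations above, and in the other cells at 153 and 93.9 CPM. Cdh2, the N-cadherin gene, went the same way at 140 and 97.3 CPM (-0.52), as it did in the other cells at 85.8 and 52.6 CPM (-0.70). Of 13 measured mesenchymal genes 1 was higher and 3 were lower, against 681 and 493 of all 12906 genes. Without the large and the doublet-ranked cells 0 and 4 of 12 were, against 640 and 630 of 11972 genes.

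**Figure D5:**
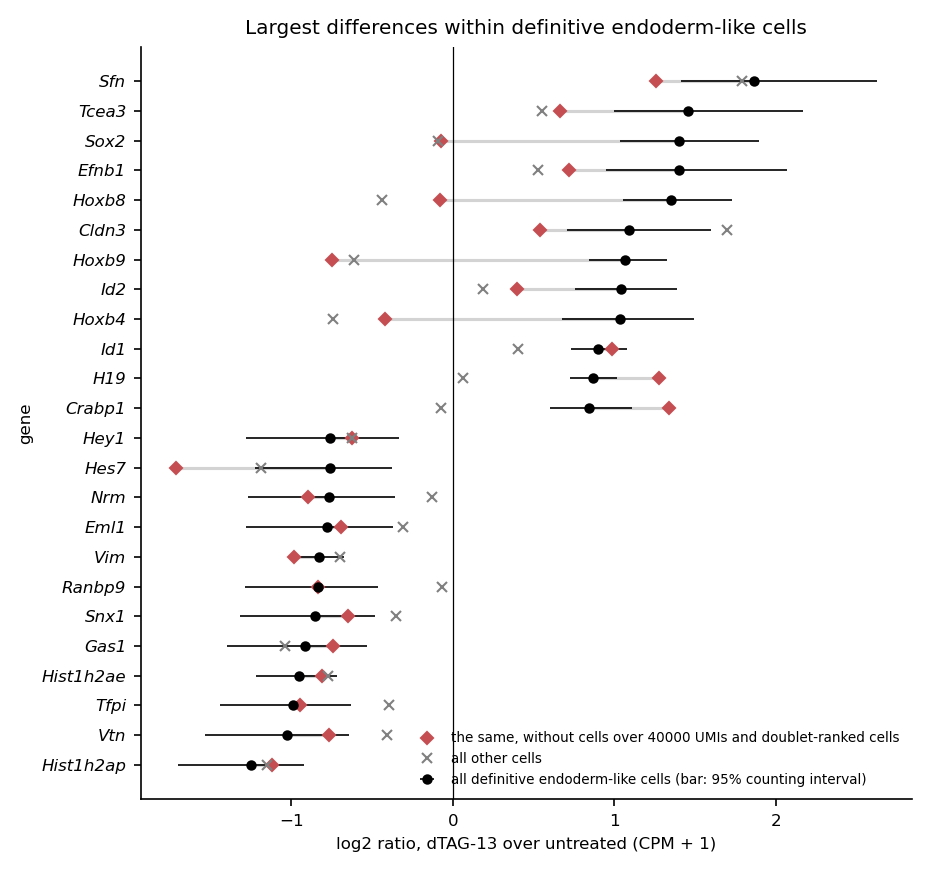
Log2 ratio of dTAG-13 over untreated for the 12 highest and 12 lowest genes in definitive endoderm-like cells, with all cells (black dots, bars are counting intervals), without the large and the doublet-ranked cells (red diamonds) and in all other cells (grey crosses). Diamonds for Sox2, Hoxb4, Hoxb8 and Hoxb9 lie at or below 0, while those of Sfn, Id1, H19 and Vim keep their side.

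Other genes among the 12 highest moved with the large cells. Hoxb8 stood at 25.2 CPM untreated and 65.7 CPM with dTAG-13, a log2 ratio of 1.35, and Hoxb9 at 50.7 and 107 CPM (1.07). Without the large and the doublet-ranked cells, Hoxb8 stood at 11.9 and 11.2 CPM (-0.08) and Hoxb9 at 18.2 and 10.5 CPM (-0.75). Hoxb4 had a ratio of 1.03 with all cells and -0.42 without them, and Sox2, a factor of pluripotent, neural and foregut cells, had ratios of 1.40 and -0.07. The whole midgut and hindgut list had a median of 0.48, with 6 of 15 genes higher and 1 lower. Without those cells its median was -0.75, with 0 of 13 higher and 7 lower. In all other cells it was -0.84, with 0 of 15 higher and 11 lower, where 410 of all 12906 genes were higher and 143 lower. The sign of the posterior list thus differs between all 156 and 254 cells and the 139 and 201 cells that remain.

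The remaining genes of the 12 highest were in between. Crabp1, a retinoic acid binding protein, stood at 47.8 and 86.3 CPM (0.84) with all cells and at 20.1 and 52.3 CPM (1.34) without the large and the doublet-ranked ones, but it was detected in only 16.5% and 12.9% of the latter, and its ratio was -0.45 after thinning. Id2 had ratios of 1.04 and 0.39, Efnb1, an ephrin ligand gene, 1.40 and 0.72, and the transcription elongation factor gene Tcea3 1.46 and 0.66. Of the 7 measured surface ectoderm genes, 6 were higher in dTAG-13 definitive endoderm-like cells, among them Upk1a at 0.869 and 11.6 CPM and Dlx5 at 0 (0 to 1.07) and 11.6 CPM. Without the large and the doublet-ranked cells 5 genes of that list were measured and 2 were higher, and Upk1a stood at 1.12 and 3.41 CPM. All 7 were higher in the other cells, where 410 of all 12906 genes were.

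Signalling genes were described by whole pathways. All pathway lists stand beside the same background within definitive endoderm-like cells. Of 12906 genes with at least 10 UMIs, 681 were higher with dTAG-13 (5.28%) and 493 lower (3.82%). In lists this short, 1 gene past the fold in a direction lies near these shares. In the Nodal list 1 of 13 measured genes was at least 1.5-fold higher and 0 lower, with a median of 0.05. In the BMP list 4 of 18 were higher, the targets Id1, Id2 and Id4 and the inhibitory Smad7, and 3 were lower, the ligand antagonists Nog (9.56 and 4.85 CPM), Chrd (8.398 and 5.12 CPM) and Fst (30.4 and 17.9 CPM). The BMP ligand genes Bmp2, Bmp4 and Bmp7 stood at 29.8, 3.47 and 22.3 CPM untreated and 24.4, 2.02 and 18.4 CPM with dTAG-13. Of this list, 3 genes were higher and 3 lower when the large and the doublet-ranked cells were left out. In the WNT list 2 of 22 were higher and 5 lower. The higher ones were the ligand genes Wnt4 and Wnt8a, and the ligand genes Wnt3a and Wnt11 were among the lower. The others were the target genes Sp5 (155 and 96.0 CPM, -0.68) and Nkd1 (19.7 and 10.9 CPM, -0.80) and the ligand potentiator Rspo3 (76.4 and 49.8 CPM, -0.61), while the target Axin2 stood at 30.1 and 29.4 CPM. Without those cells Sp5 had a ratio of -0.47.

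In the Notch list 1 of 14 genes was higher and 4 were lower, with a median of -0.29, against -0.40 in the other cells. The lower ones were the receptor gene Notch2 and the target genes Hes5 (15.1 and 6.19 CPM), Hes7 (24.9 and 14.3 CPM) and Hey1 (20.3 and 11.6 CPM). In the FGF and ERK list 1 of 17 was higher and 1 lower. Fgf8 stood at 138 and 93.4 CPM (-0.56), and without the large and the doublet-ranked cells at 129 and 70.8 CPM (-0.86), with 4 of 15 genes of the list lower. The Hedgehog list had 2 of 12 higher and 1 lower, and the retinoic acid list 4 of 12 higher and 0 lower. Without the large and the doublet-ranked cells the retinoic acid list had 2 of 11 higher and 2 lower, with a median of -0.09 against 0.11, and Aldh1a2, which makes retinoic acid, stood at 6.70 and 0.730 CPM. Cyp26a1, which degrades retinoic acid, stood at 74.4 and 59.6 CPM in definitive endoderm-like cells and at 15.7 and 10.8 CPM in all others.

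Cell cycle and stress genes were close between the libraries, as were most genes. Of all 12906 genes, 681 were at least 1.5-fold higher with dTAG-13 (5.28%) and 493 lower (3.82%). The S phase and the G2 and M phase lists also had higher levels than most genes. In untreated definitive endoderm-like cells their medians were 88.9 and 107 CPM, against 15.9 CPM over all those genes. Of 18 S phase, 18 G2 and M phase, 12 p53 response and 11 dissociation genes, 0 passed 1.5-fold in either direction within definitive endoderm-like cells, and the medians were -0.05, 0.15, 0.10 and -0.02. The same lists summed to less in definitive endoderm-like than in other cells: the S phase genes to 1752 against 2230 CPM untreated and 1705 against 2223 CPM with dTAG-13. Of 17 basement membrane genes 0 passed the fold between the libraries, while 7 and 5 were at least 2-fold higher than in other cells. Col4a1, a collagen IV chain, stood at 244 and 170 CPM, against 36.7 and 27.8 CPM. Of 19 glycolysis and hypoxia genes 2 were higher and 1 lower. Gapdh was 1 of the higher ones, at 650.1 and 1013 CPM, with a ratio of 0.64 and 0.60 in the other cells.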

How the data were processed

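Single-cell RNA was measured in 1 untreated and 1 dTAG-13 library (10x 3' chemistry, per the labels' protocols). The deposited values are raw UMI counts per gene and barcode, made by the authors with Cell Ranger 6.1.2 on mm10, per the submitters' processing notes. The labels do not say whether counting used the strand. Gene positions came from GENCODE M21, which matched 32158 of 32285 identifiers.

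Barcodes with at least 1000 genes and at most 10% mitochondrial UMIs were kept, and the marker rule was applied to raw counts. Counts were summed over the chosen cells of a library and scaled to 1000000 UMIs (CPM) with exact Poisson intervals. Ratios are log2 with a prior of 1 CPM. Genes with at least 50 UMIs in both libraries together entered the dTAG-13 comparison, and list members needed at least 10. With 1 library per group no test was made, and folds of 1.5 between libraries and 2 between cell groups served as limits. Shares carry Clopper-Pearson intervals, and some were recomputed after thinning cells to 5000 UMIs.

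Named genes were the 30 highest and 10 lowest against other cells, by the library with the smaller difference and at 20 CPM or more, the 12 highest and 12 lowest between libraries, and members of 32 gene lists. Predicted and mitochondrial genes were passed over. The cells, lists and rules were chosen with earlier results of these data known. Doublets were kept. Scrublet's automatic threshold marked 6 and 2 barcodes, so an alternative removed the 424 and 496 barcodes with the highest scores. Other alternatives changed the marker rule, the depth, the prior, the gene filter and the scaling (edgeR 4.0.16 TMM factors). Those leaving out cells over 40000 UMIs were chosen after seeing the data. The computation used Python 3.11.15, scanpy 1.11.5, scipy 1.17.1 and R 4.3.3, and was tested on simulated data.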

Additional observations from a re-analysis of the deposited data

Results flagged for a closer look

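For 7 genes the log2 ratio of dTAG-13 over untreated lay on opposite sides of 0 in definitive endoderm-like and in all other cells, with both counting intervals clear of 0. The difference between the cell groups was not tested, since each group has 1 library. Foxa2 had a ratio of -0.18 in definitive endoderm-like and 1.25 in other cells, and Car4 had -0.13 and 1.02. Sox2 had 1.40 and -0.09, Hoxb8 1.35 and -0.44, Hoxb9 1.07 and -0.61, Hoxb4 1.03 and -0.74, and Crabp1 0.84 and -0.08. Several of these contrasts depend on the largest cells. Without the cells over 40000 UMIs and the doublet-ranked cells, Foxa2 stood at -0.0057 and Car4 at 0.25 in definitive endoderm-like cells, and Car4 at 0.37 after thinning, so Car4 no longer lay opposite the other cells. The 4 genes Sox2, Hoxb8, Hoxb9 and Hoxb4 stood at -0.07, -0.08, -0.75 and -0.42 without these cells, and Crabp1 at 1.34.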

How the results depend on the processing

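No paired analysis was possible because each group has 1 library. The dTAG-13 share of definitive endoderm-like cells stayed above the untreated one under all settings tried. Shares were 0.933% and 1.32%, a difference of 0.390 points, with all 3 markers required, and 1.40% and 2.34% after thinning. The dTAG-13 share was 4.19% with markers at 1 UMI and 4.23% without the Zfp42 limit, and the untreated share was 2.85% with T or Noto cells left out. With a prior of 5 CPM, 82 genes were higher and 51 lower with dTAG-13, and 320 and 224 genes were 2-fold higher than in other cells. With genes from 10 UMIs, 681 were higher and 493 lower. The causes were not tested beyond the number of genes entering. The pluripotency list's median turned to -0.36 with doublet-ranked barcodes removed, -0.31 with T or Noto cells left out, -0.14 as a per-cell mean, -0.40 without cells over 40000 UMIs and -0.37 without both. Hes7 turned to 0.082 with T or Noto cells left out. Thinning gave Crabp1 -0.45, Gas1 0.43, Hoxa7 -1.51, Nkd1 0.14 and Sox2 -0.16. Without cells over 40000 UMIs, Hoxa7 stood at -0.65, Hoxb4 at -0.61, Hoxb8 at -0.18, Hoxb9 at -0.89 and Zeb2 at -0.35. Without doublet-ranked cells as well, Hoxa7 stood at -0.82, Hoxb4 at -0.42, Hoxb8 at -0.083, Hoxb9 at -0.75, Sox2 at -0.073, Tfap2c at -0.021 and Zeb2 at -0.69. Of the other values of single genes and list medians, each counted once per setting, 654 stayed within their limit and 295 moved past it. The limit was the counting interval for a gene and a fixed shift in log2 ratio for a median. Depth limits genes under about 20 CPM, where few UMIs stand behind a value.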
